A study of Mus musculus with 35 samples.

Results

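The 9 genes described here encode the main subunits of the ionotropic glutamate receptors, the ion channels that glutamate opens at excitatory synapses. They are the AMPA receptor genes Gria1, Gria2, Gria3 and Gria4 and the NMDA receptor genes Grin1, Grin2a, Grin2b, Grin2c and Grin2d. They were chosen by symbol from the 55356 genes of the deposited annotation, and each of the 9 was found. RNA-seq was made from adult C57BL/6J mice without any treatment, in 29 libraries of 10 groups: female and male brain, cerebellum, heart and colon, female gonad (ovary) and male gonad (testis). Each group held 3 libraries, except male heart with 2. The study's methods describe a strand-specific library kit and depletion of rRNA, and total counts ranged from 11742417 to 36194255 per library. The labels do not name the animal of a library. They carry a number code whose last digit follows the tissue and whose leading digit is shared by libraries of several tissues, and whether it marks animals is not stated, so the p-values below measure the spread between libraries. Iso-seq, which reads cDNA molecules from end to end, was run on 6 flow cells (3 of gonad RNA, 3 of pooled somatic tissues), and it entered these data only through the transcript models on mouse genome GRCm38.p6.

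AMPA receptors carry most of the fast excitatory current and are built of 4 subunits drawn from GluA1 to GluA4, the products of Gria1 to Gria4. The Gria2 product, once its transcript has been edited, keeps calcium out of the channel, so receptors without it let calcium through. NMDA receptors open only when glutamate, a co-agonist and a depolarized membrane come together, and they join the obligatory GluN1 subunit of Grin1 with GluN2 subunits of Grin2a to Grin2d, which set the kinetics of the current. In the forebrain, Grin2a and Grin2b are the usual GluN2 genes, whereas mature cerebellar granule cells are known for Grin2c, and Bergmann glia of the cerebellum are known for AMPA receptors of Gria1 and Gria4 without Gria2.

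Each AMPA subunit is made with 1 of a pair of alternative exons, flip or flop, which lie side by side in the gene and change how fast the channel desensitizes. The exons were recognised by their known length, which is the same for flip and flop, and by the peptides that set them apart. They are shown for the genes whose Iso-seq models held both, 5′ to 3′ from the GENCODE M21 transcripts, with capitals at the bases that differ between flip and flop of the same gene.
Gria1 flip, chr11:57310608-57310722, plus strand: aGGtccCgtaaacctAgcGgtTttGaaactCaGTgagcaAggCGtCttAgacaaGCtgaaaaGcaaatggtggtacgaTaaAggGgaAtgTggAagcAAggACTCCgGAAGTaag
Gria1 flop, chr11:57309769-57309883, plus strand: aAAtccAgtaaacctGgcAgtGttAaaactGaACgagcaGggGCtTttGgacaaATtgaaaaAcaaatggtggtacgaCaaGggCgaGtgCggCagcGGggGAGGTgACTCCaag
Gria2 flip, chr3:80690404-80690518, minus strand: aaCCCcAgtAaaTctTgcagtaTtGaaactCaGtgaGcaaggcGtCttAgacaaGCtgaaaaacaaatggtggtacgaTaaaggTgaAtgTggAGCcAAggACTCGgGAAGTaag
Gria2 flop, chr3:80691320-80691434, minus strand: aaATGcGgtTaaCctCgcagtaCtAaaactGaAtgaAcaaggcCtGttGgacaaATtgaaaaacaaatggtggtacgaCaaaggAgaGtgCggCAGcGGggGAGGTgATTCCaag
Gria4 flip, chr9:4427030-4427144, minus strand: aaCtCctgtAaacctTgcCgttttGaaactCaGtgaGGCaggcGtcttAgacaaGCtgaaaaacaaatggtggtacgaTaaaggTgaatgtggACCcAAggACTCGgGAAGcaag
Gria4 flop, chr9:4432773-4432887, minus strand: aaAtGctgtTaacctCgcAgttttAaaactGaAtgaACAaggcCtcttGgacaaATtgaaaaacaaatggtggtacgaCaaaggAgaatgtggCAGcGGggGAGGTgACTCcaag
Flip and flop differed at 36 bases in Gria1 and Gria2, at 32 bases in Gria3 and at 31 bases in Gria4. Between genes the same exon was more alike, with 87.8% to 92.2% identity among the flip exons and 87.8% to 94.8% among the flop exons, against 68.7% to 73% between flip and flop within a gene. Among the Iso-seq models of Gria1, 20 of 28 held the flip exon, 3 the flop exon, 1 both and 4 neither. Gria2 was more evenly divided, with 8 flip, 6 flop, 1 both and 3 neither among 18 models. Gria4 had 2 flip, 1 flop and 2 models with neither, and Gria3 had 4 flip models, 0 flop models and 1 with neither. These models are collapsed over tissues and carry no read numbers, so they say nothing of how abundant each form was. For Grin1, the N1 cassette at chr2:25311343-25311405, an exon spliced in or out of the extracellular part, was in 2 of 6 models, and the C1 cassette of the cytoplasmic tail at chr2:25294438-25294548 was in 1 of 6. An exon counted as held where both its ends lay within 2 bases.

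Reads were counted under an Iso-seq locus for Gria1 to Gria4, Grin1 and Grin2b, and under the ENSEMBL gene for Grin2a, Grin2c and Grin2d. The loci lie on chromosomes 11 (Gria1, Grin2c), 3 (Gria2), X (Gria3), 9 (Gria4), 2 (Grin1), 16 (Grin2a), 6 (Grin2b) and 7 (Grin2d). For 8 of the 9 genes the counted exons held at least 96.1% of the coding bases. The exception was Grin2b, which was counted on a single block, chr6:135729826-135733660, holding 1560 of its 4447 coding bases and 15.4% of its annotated exon bases. Its level per length therefore describes that block. Exons of Grin1, Grin2b, Grin2c and Grin2d are shared in part with genes on the opposite strand (Grin1os, Gm14329, Gm25837 and Gm45441). Gm25837, a miRNA gene, shares 91 bases with Grin2c and held 0.0802 to 0.147 times the reads of Grin2c in brain. Whether reads were counted by strand is not given in the sources used here. Among genes lying wholly within exons of another gene, 60 of 60 on the same strand had no count, and 128 of 128 on the opposite strand had counts, at a median of 1.14 times the host gene per base. Genes on opposite strands were thus counted apart, and at the median they held about as many reads per base as their hosts. How many reads given to one gene of such a pair came from the other was not tested. Levels are given below in FPKM, the counts scaled to the library's total (as CPM) and divided by the kilobases of counted exons, and differences as log2 values from edgeR's quasi-likelihood test with TMM scaling and Benjamini-Hochberg adjustment over the 29911 genes that passed its filter on low counts. All 9 genes passed that filter, and each also passed it within the brain libraries alone and within the cerebellum libraries alone. Gria2 did not pass it within heart or ovary, Grin1 within heart, and Grin2a within colon or ovary. Neither did Grin2b within heart or colon, nor Grin2c and Grin2d within colon. In such a tissue the gene was tested only because it passed through other tissues, so those calls are a description.

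The tissue labels were checked with markers. The 7 forebrain neuron markers were all higher in brain and the 6 granule cell, 5 Purkinje cell and 3 Bergmann glia markers all higher in cerebellum. Granule cell markers summed to 13.9 to 28 FPKM in brain and 196 to 344 FPKM in cerebellum. Astrocyte markers summed to 221 to 394 FPKM in brain and 359 to 546 FPKM in cerebellum, with 2 of 3 called higher in cerebellum, and 0 of the 4 oligodendrocyte markers was called. Heart muscle, colon epithelium and testis germ cell markers peaked in their own tissue, at 9923 to 16943, 900 to 1555 and 8465 to 9427 FPKM. In ovary, Foxl2 was at 35.1 to 53.9 FPKM and at 0.692 FPKM or less elsewhere, while Gdf9, counted under an Iso-seq locus, was higher in heart than in ovary. Female heart replicate 3 stood apart from the other heart libraries, with a TMM factor of 1.12 against 0.604 to 0.711 and 9923 FPKM of muscle markers against 14529 or more.

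**Figure D1:**
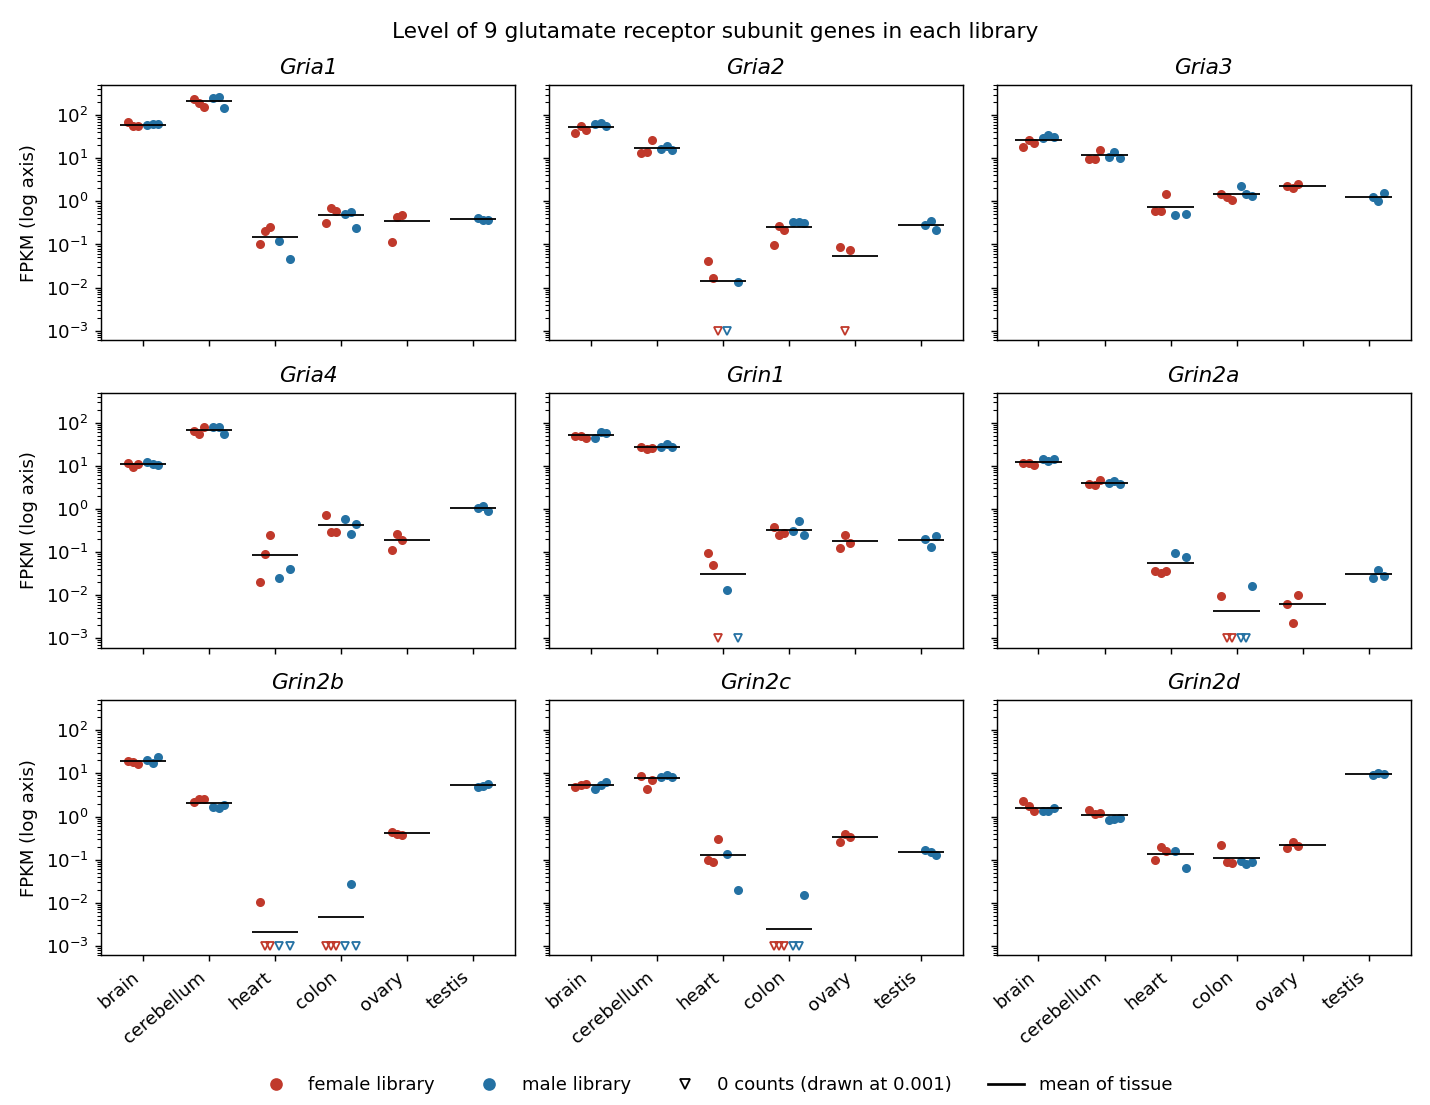
FPKM on a log axis of the 9 subunit genes in each of the 29 libraries by tissue. Points are libraries, bars are tissue means, and open triangles are libraries with 0 counts. Every gene except Grin2d was highest in brain or cerebellum, and Grin2d was highest in testis, at 9.26 to 10.2 FPKM.

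The 4 AMPA receptor genes divided between brain and cerebellum. Gria1 and Gria4 were higher in cerebellum, and Gria2 and Gria3 were higher in brain, in each case without overlap between the 6 libraries of one region and the 6 of the other. Over all 9 genes, 6 were higher in brain and 2 in cerebellum at an adjusted p under 0.05, where 15.3% and 10.8% of all genes tested were called in these directions. Of all calls, 58.5% were higher in brain, and this was 46.2% with upper quartile scaling and 44.7% with total counts alone, while 8 of the 9 subunit genes were called under each. The libraries of brain all lay above those of cerebellum for 5 of the 9 genes and below them for 2, against 9.26% and 9.33% of all genes. In whole tissue, more cells of a type and more RNA per cell cannot be told apart.

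Gria4 differed most among the AMPA genes. It ranged from 9.34 to 12.3 FPKM in brain (median 11) and from 53.9 to 81.4 FPKM in cerebellum (median 71.5), so that even the lowest cerebellum library stood far above every brain library. The difference was -2.52 (SE 0.226, adjusted p = 3.16e-09), which is 5.74-fold higher in cerebellum. Gria1, whose product supplies much of the activity-dependent receptor traffic at forebrain synapses, was at 55.3 to 67.7 FPKM in brain (median 59.3) and at 148 to 257 FPKM in cerebellum (median 215). It was 3.12-fold higher in cerebellum (log2 difference -1.64, SE 0.234, adjusted p = 5.41e-06). Brain libraries differed little from each other in Gria1, whereas the cerebellum libraries spread from 148 to 257 FPKM.

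Gria2 showed the opposite pattern, with 38.4 to 66.7 FPKM in brain (median 55.2) and 13 to 26.6 FPKM in cerebellum (median 15.7). It was 3.4-fold higher in brain (log2 difference 1.77, SE 0.254, adjusted p = 5.93e-06). The highest cerebellum value, 26.6 FPKM, came from female replicate 3, and the other 5 cerebellum libraries lay at 18.8 FPKM or below. The same library was the highest in the cerebellum for Gria3, Grin2a and the 7 forebrain neuron markers, whose summed level was 82 FPKM there against 31.2 to 71.4 FPKM in the other cerebellum libraries and 951 to 1517 FPKM in brain. It was also the highest for the pan-neuronal markers, at 1422 FPKM against 875 to 1279 FPKM. The part of these markers in the Gria2 value was not tested, and without this library the Gria2 difference was 1.95. Gria3, an X-linked gene, was at 18.3 to 34 FPKM in brain (median 28.3) and at 9.36 to 15.7 FPKM in cerebellum (median 10.4), a 2.56-fold difference (log2 difference 1.35, SE 0.153, adjusted p = 1.43e-07).

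Added over the 4 genes, AMPA receptor RNA was 152 ± 15.7 FPKM in brain and 304 ± 58 FPKM in cerebellum (SD, n = 6 each), and its makeup differed between the regions. In brain, Gria1 took 39.9% ± 5.39 of the summed FPKM, Gria2 35.2% ± 3.99, Gria3 17.7% ± 2.25 and Gria4 7.23% ± 0.951. In cerebellum, Gria1 took 67.4% ± 6.33 and Gria4 22.8% ± 3.17, while Gria2 took 5.89% ± 2.15 and Gria3 3.89% ± 1.09. The share of Gria2 ran from 28.2% to 38.7% in brain and from 3.93% to 9.85% in cerebellum, so the regions did not overlap. For each unit of Gria2, a brain library held 0.909 to 1.76 units of Gria1 and 0.168 to 0.3 of Gria4, and a cerebellum library held 5.65 to 18.7 of Gria1 and 2.91 to 5.05 of Gria4. These shares are a description without a test, and they moved with the length used. The GENCODE lengths divide reads of the counted exons by a whole gene or transcript, which lowers genes counted on a part of it, such as Gria2 (42.9% of its exon bases counted). With the exon union of GENCODE or its longest transcript, Gria2 took 20.6% or 23.9% in brain and 2.53% or 3.33% in cerebellum, and with the exon union Gria4 took 12.1% in brain and 28.2% in cerebellum. For each unit of Gria2, the exon union gave 2.11 to 4.1 units of Gria1 and 0.484 to 0.866 of Gria4 in brain. In cerebellum it gave 13.1 to 43.4 of Gria1 and 8.41 to 14.6 of Gria4.

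**Figure D2:**
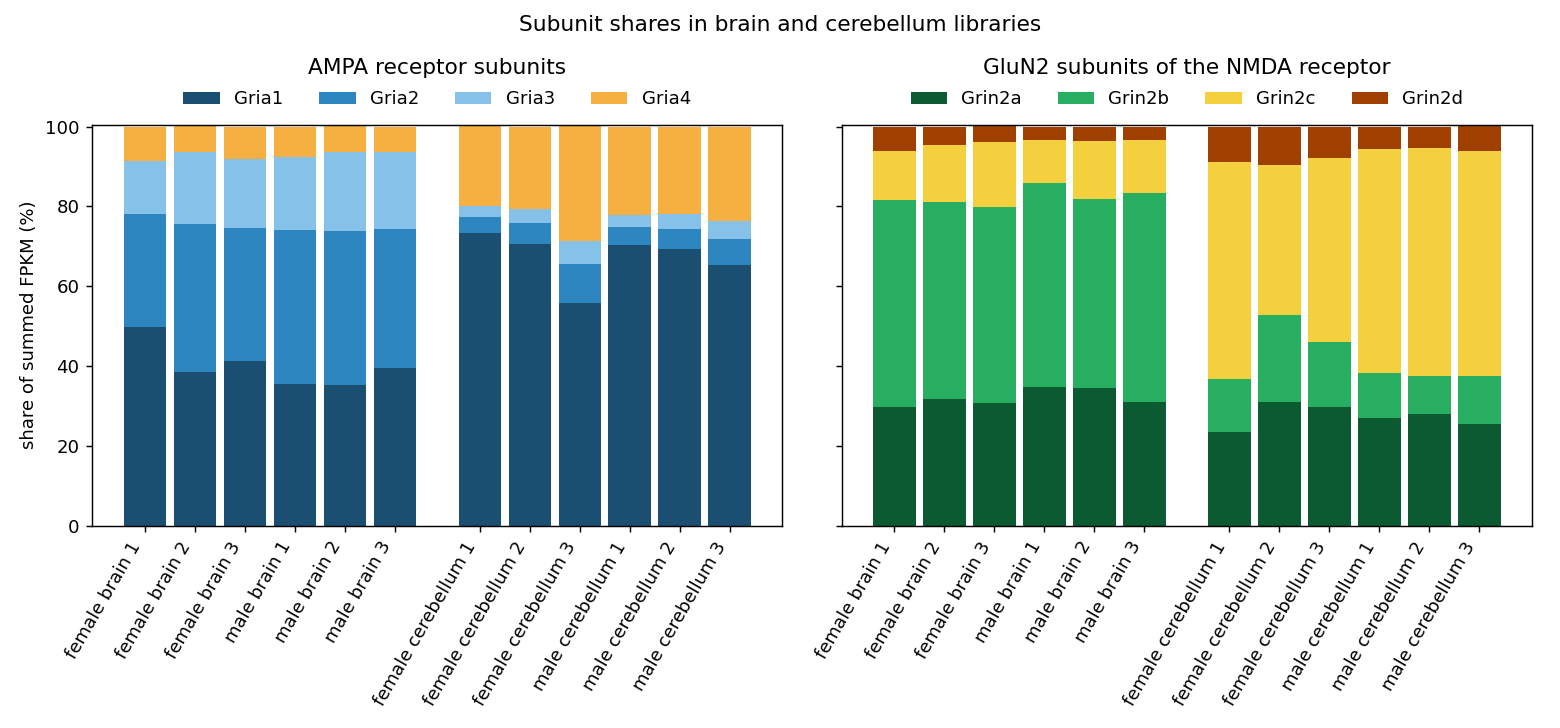
Share of each subunit in the summed FPKM of the 4 AMPA genes (left) and of the 4 GluN2 genes (right) in the 6 brain and 6 cerebellum libraries, as stacked bars. Gria2 fills 28.2% to 38.7% of the brain bars and 3.93% to 9.85% of the cerebellum bars, and Grin2b fills 47.3% to 52.4% and 9.66% to 21.7%.

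Beside the AMPA genes, the markers of the cells known to carry them were read in the same libraries. The 3 Bergmann glia markers (Gdf10, Slc1a3 and Hopx) summed to 145 to 175 FPKM in brain and 450 to 764 FPKM in cerebellum, and none of them was at 0 in either region. Most of this sum was Slc1a3, a carrier of glia, with means of 136 FPKM in brain and 406 FPKM in cerebellum. In heart the sum was 112 to 170 FPKM, where Hopx was at 83.5 to 169 FPKM, so it is not a measure of Bergmann glia alone. Within the cerebellum, the 3 libraries with the most Bergmann marker RNA, at 705, 734 and 764 FPKM, were the 3 with the most Gria1, at 242, 257 and 254 FPKM. The 2 libraries with the least, at 450 and 470 FPKM, held 148 and 150 FPKM of Gria1. The summed 5 Purkinje cell markers were highest in the same 3 libraries and ran from 1750 to 3212 FPKM in cerebellum against 94.2 to 144 FPKM in brain. Oligodendrocyte markers ran in the reverse order of Gria1 over these 6 libraries, from 538 FPKM where Gria1 was at 257 FPKM to 1574 FPKM where it was at 148 FPKM. Gria4 followed the Bergmann markers less closely, since the library with 470 FPKM of Bergmann markers held 77.5 FPKM of Gria4 and the one with 705 FPKM held 65.5 FPKM. The 3 cerebellum libraries with the most granule cell marker RNA, at 344, 337 and 335 FPKM, were the 3 with the most Gria4, at 79.7, 77.5 and 81.4 FPKM. The 2 with the least, at 277 and 196 FPKM, held 53.9 and 55 FPKM of Gria4. The part of these cell types in the Gria1 and Gria4 differences was not tested.

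**Figure D3:**
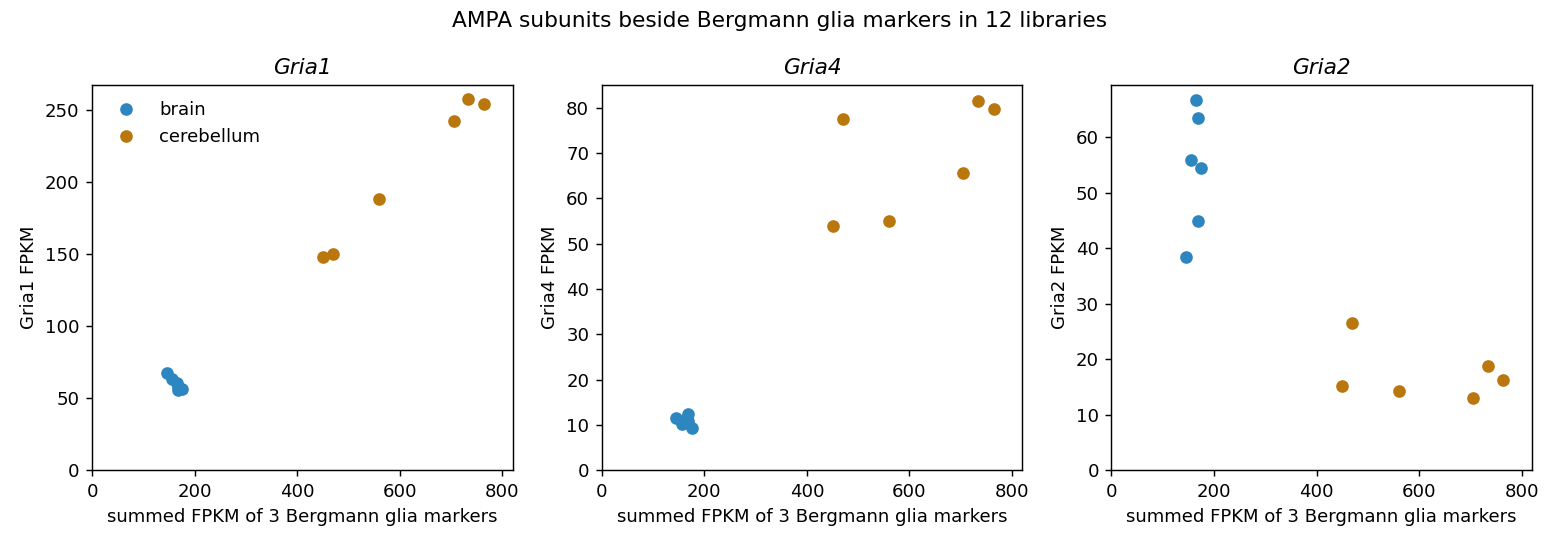
FPKM of Gria1, Gria4 and Gria2 against the summed FPKM of the 3 Bergmann glia markers (mostly Slc1a3) in the 6 brain and 6 cerebellum libraries, each point a library. In cerebellum, Gria1 runs from 148 to 257 FPKM in nearly the order of the markers, and Gria2 does not.

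Among the NMDA receptor genes, 4 of 5 were higher in brain, and Grin2c was not called. Grin1 was at 43.3 to 60.5 FPKM in brain (median 49) and 24.6 to 31.9 FPKM in cerebellum (median 27.3), a 2.03-fold difference without overlap (log2 difference 1.02, SE 0.198, adjusted p = 0.000273). The antisense gene Grin1os, which shares 1307 bases with the counted exons of Grin1, moved with it, at 31.6 ± 5.58 FPKM in brain and 16.5 ± 1.93 FPKM in cerebellum (SD, n = 6 each).

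Of the 9 genes, Grin2b had the largest difference in the TMM fit, whereas Gria4 had the largest when libraries were scaled to pan-neuronal genes (-3.54, against 2.44 for Grin2b). On its counted block it was at 16.8 to 24.4 FPKM in brain (median 19.2) and at 1.57 to 2.53 FPKM in cerebellum (median 1.96), which was 10.8-fold higher in brain (log2 difference 3.43, SE 0.157, adjusted p = 2.8e-13). The cerebellum level rested on 120 to 259 reads per library. Grin2a was at 10.5 to 14.4 FPKM in brain (median 12.3) and at 3.62 to 4.63 FPKM in cerebellum (median 3.83), 3.4-fold higher in brain (log2 difference 1.76, SE 0.173, adjusted p = 1.48e-08). Neither gene had overlapping libraries.

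Grin2c was at 4.3 to 6.19 FPKM in brain (median 5.37) and at 4.37 to 9.26 FPKM in cerebellum (median 8.24). Of the 6 cerebellum libraries, 5 lay above every brain library, and female replicate 2, at 4.37 FPKM, lay at the low end of the brain range. The same library had the lowest summed level of the 6 granule cell markers in the cerebellum, 196 FPKM against 277 to 344 FPKM in the others. The log2 difference was -0.39 (SE 0.209, adjusted p = 0.186), and the interval of 2 SE on either side ran from -0.81 to 0.02. A fit on only the 12 brain and cerebellum libraries called Grin2c higher in cerebellum (-0.47, adjusted p = 0.0199), so its call depended on the libraries in the fit. Over 23 alternatives its adjusted p ran from 0.000215 to 0.719. Grin2d, the GluN2 gene of slow, long-lasting currents, was at 1.31 to 2.26 FPKM in brain (median 1.48) and at 0.827 to 1.4 FPKM in cerebellum (median 1.02). It was 1.67-fold higher in brain (log2 difference 0.74, SE 0.176, adjusted p = 0.00223), and the libraries of the regions overlapped. Its antisense partner Gm45441 moved with it, at 5.43 ± 1 FPKM in brain and 1.22 ± 0.357 FPKM in cerebellum, or 0.561 to 0.877 and 0.181 to 0.289 times the reads of Grin2d, and its part in the difference was not tested.

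The GluN2 genes together reached 39 ± 4.22 FPKM in brain and 14.8 ± 1.66 FPKM in cerebellum (SD, n = 6 each). With the GENCODE exon union the sums were 22.4 and 13.1 FPKM, and with the longest transcript 25.8 and 14.4 FPKM. With the counted lengths, Grin2b took 50.2% ± 1.93 of the sum in brain and 14% ± 4.32 in cerebellum, and Grin2c took 13.6% ± 1.9 in brain and 51.3% ± 7.85 in cerebellum. The share of Grin2a was 32.1% ± 2.09 in brain and 27.4% ± 2.83 in cerebellum, and Grin2d took 4.13% ± 0.986 and 7.25% ± 1.81. The level of Grin2c itself was not called different between the regions, as given above. Grin1 stood at 1.31 ± 0.177 times the summed GluN2 genes in brain and at 1.87 ± 0.16 times in cerebellum. This order depended on the lengths, in an alternative chosen after seeing the data: the ratio was 0.924 in brain and 0.866 in cerebellum with the GENCODE exon union, and 1.82 and 1.77 with the longest transcript. These lengths include exons on which no reads were counted, since 40.7% of the GENCODE exon bases of Grin1 and 15.4% of those of Grin2b were in the counted loci. The order of Grin2a and Grin2b in brain turned with the length used: with undivided counts Grin2a held 66.5% and Grin2b 22.3%, since reads of Grin2b were counted on 3835 bases and those of Grin2a on 17933 bases. The leading gene of the cerebellum turned as well, with 57.6% for Grin2a and 30.5% for Grin2c in undivided counts. In undivided counts of the cerebellum, Grin2b took 6.29% and Grin2d 5.66%. With the GENCODE exon union, Grin2d instead lay above Grin2b in cerebellum, and Grin2c lay above Grin2b in brain.

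**Figure D4:**
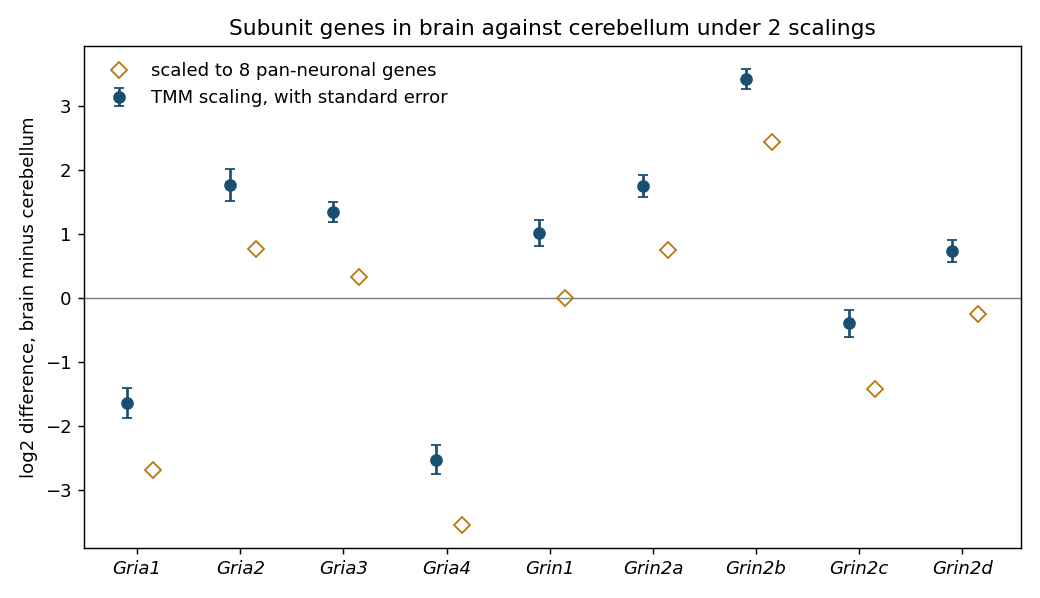
Log2 difference between brain and cerebellum for the 9 genes, positive where brain was higher. Circles with bars are the TMM fit with its standard error, and diamonds are the fit scaled to 8 pan-neuronal genes, in which Grin1 falls to 0.00 and Grin2d to -0.25.

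The 8 pan-neuronal genes, such as Snap25 and Rbfox3, summed to 1610 to 2066 FPKM in brain and 875 to 1422 FPKM in cerebellum, and 6 of the 8 were called higher in brain, where 15.3% of all genes were. With upper quartile scaling it was 5 of 8, and with total counts alone 4 of 8. When libraries were scaled to these genes, which moved the median of all genes to -0.89, the differences of Gria2 (0.77), Gria3 (0.34) and Grin1 (0.00) were no longer called and that of Grin2d turned to -0.25 without a call. Gria1 and Gria4 remained called higher in cerebellum, Grin2a and Grin2b higher in brain, and Grin2c became called higher in cerebellum (-1.41, adjusted p = 0.000215). In females alone, the differences of Gria2, Grin1 and Grin2d kept their sign and missed the threshold.

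Of 60 further genes of glutamate signaling, in 6 lists, 32 were higher in brain, 13 higher in cerebellum and 15 not called, and all 60 were tested, where 15.3% and 10.8% of all genes were called in these directions. Scaled to pan-neuronal genes, it was 17 in brain and 25 in cerebellum. Among the 15 auxiliary subunits of AMPA and kainate receptors, 7 were higher in brain and 5 in cerebellum, with a median log2 difference of 0.32 against 0.00 over all genes. Scaled to pan-neuronal genes it was 7 and 8, with a median of -0.67 against -0.89 over all genes. The transmembrane AMPA receptor regulator Cacng3 was 18-fold higher in brain, at 53.1 ± 9.87 against 3.38 ± 1.26 FPKM, and the kainate receptor partner Neto1 was 12.1-fold higher in brain. Cacng5, at 2.99 ± 0.229 FPKM in brain and 21.4 ± 6.47 FPKM in cerebellum, and Shisa6, which slows AMPA receptor desensitization, were 6.5-fold and 6.99-fold higher in cerebellum (SD, n = 6 each, throughout this paragraph). Among the 18 scaffold genes of the postsynaptic density, 13 were higher in brain and 2 in cerebellum, with a median of 0.86, and 6 and 6, with a median of -0.15, when scaled to pan-neuronal genes. Dlgap2, a partner of the scaffold PSD-95, was 23.1-fold higher in brain. Homer3, the Homer gene of Purkinje cells, was 12.4-fold higher in cerebellum, at 47.9 ± 12.2 against 3.53 ± 0.605 FPKM.

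The 9 other ionotropic genes split evenly, with 2 higher in brain, 2 in cerebellum, 5 not called and a median of -0.25, which is near the shares over all genes, and scaled to pan-neuronal genes it was 1 and 5 (median -1.28). The kainate receptor gene Grik5 was 3.1-fold and the delta receptor gene Grid1 2.02-fold higher in brain, whereas the kainate receptor gene Grik2 was 1.78-fold higher in cerebellum. Of the 8 metabotropic receptor genes, 5 were higher in brain and 2 in cerebellum (median 1.27), and 2 and 2 with the pan-neuronal scaling (median 0.28). Grm5 was 9.22-fold and Grm2 4-fold higher in brain. Grm4, known from granule cell terminals, was 11.7-fold higher in cerebellum. Of the 7 glutamate transporter genes, 4 were higher in brain and 2 in cerebellum (median 1.24), and 1 and 2 with the pan-neuronal scaling (median 0.25). The vesicular transporter Slc17a7 was 5.09-fold and the neuronal uptake carrier Slc1a1 3.63-fold higher in brain, and the Purkinje cell carrier Slc1a6 and the glial carrier Slc1a3 were 18.9-fold and 2.71-fold higher in cerebellum. Of the 3 editing enzymes, Adar was 1.52-fold higher in brain (0.61), and this was -0.38 and called the other way when scaled to pan-neuronal genes. The median of this list was 0.42, and -0.56 with 0 higher in brain and 2 in cerebellum under that scaling. Adarb1, the enzyme that edits Gria2, is named here after its values were seen. At 26.4 FPKM in brain and 30.9 FPKM in cerebellum it was not called in the TMM fit (log2 difference -0.10), and its own value under the pan-neuronal scaling is not given here. Adarb1 aside, the direction of the other genes named in these lists held under each scaling tried, although Grid1 came to 0.00 and Grid1 and Slc1a1 lost their call when scaled to pan-neuronal genes.

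**Figure D5:**
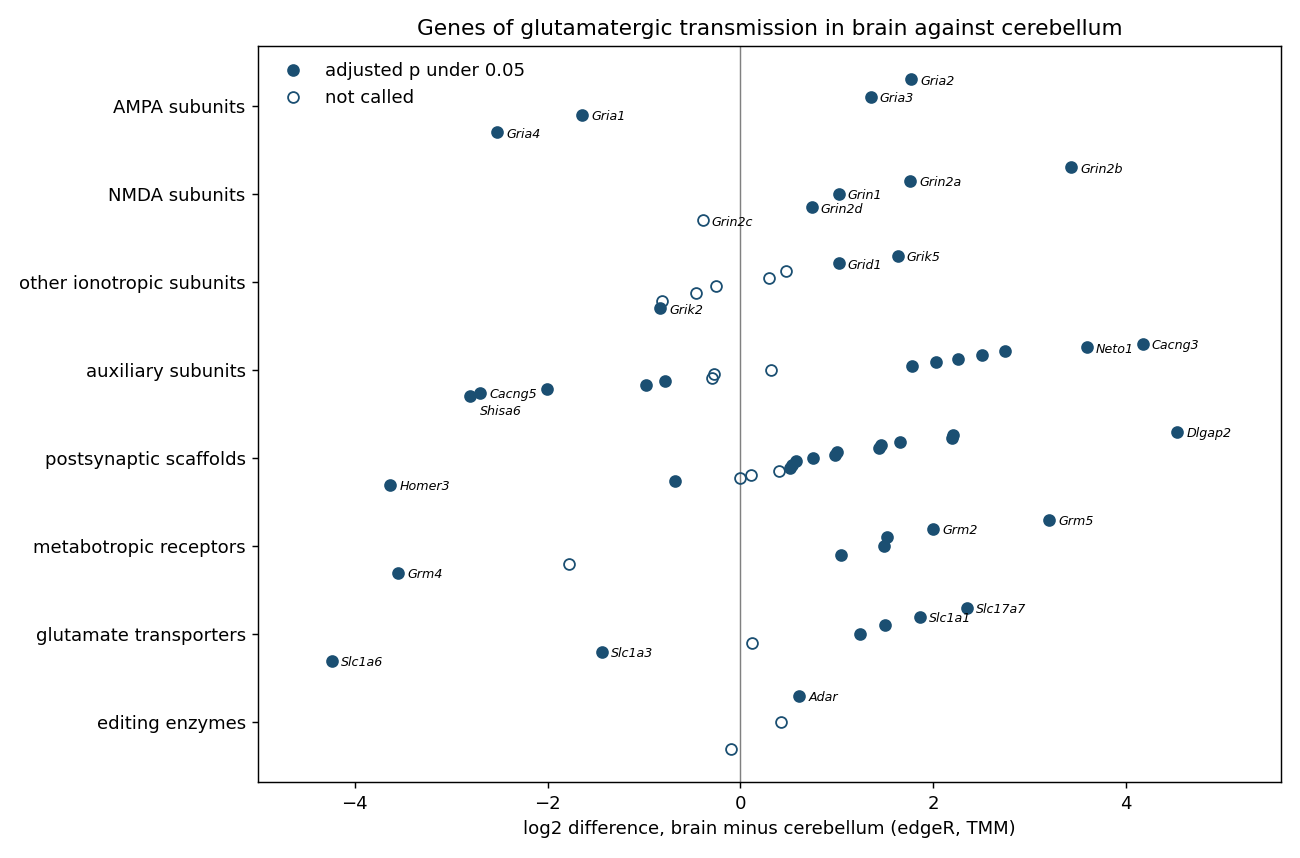
Log2 difference between brain and cerebellum for the 9 subunit genes and the further genes of glutamate signaling, by list, positive where brain was higher. Genes not reported here are left out. Filled points have an adjusted p under 0.05, and Dlgap2 (4.53) and Slc1a6 (-4.24) lie at the ends.

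Male and female libraries were compared within brain and within cerebellum, and none of the 9 genes was called. In brain, 0 of the 9 genes passed edgeR's test (1 at an unadjusted p under 0.05, and 0 in DESeq2), where 0.0368% of all genes were called. In cerebellum it was 0 of 9 (2 unadjusted, 0 in DESeq2), against 0.0301% of all genes, of which 916 had an unadjusted p under 0.05. For the interaction of sex and region it was 0 of 9 (1 unadjusted, 0 in DESeq2), against 0% of all genes. Here 1189 of all genes had an unadjusted p under 0.05 and 4 were called by DESeq2. For 3 of the 9 genes in brain every male library lay above every female one, and for 2 of the 9 in cerebellum every female library lay above every male one. Over all genes, 4.84% had the male libraries on top in brain and 8.59% the female ones, and in cerebellum 3.13% had the male and 3.63% the female libraries on top. Gria3 was at 18.3, 26.4 and 23.1 FPKM in the female and at 30.1, 34 and 30.8 FPKM in the male brain libraries. Its log2 difference, male minus female, was 0.56 (SE 0.212, adjusted p = 0.981), and in cerebellum it was 0.02 (SE 0.213). Gria2 (0.50) and Grin2a (0.36) also had higher values in each male than in each female brain library. Astrocyte markers went the other way, at 394, 256 and 285 FPKM in the female and 243, 221 and 229 FPKM in the male brain libraries. Pan-neuronal and oligodendrocyte markers overlapped between the sexes, and the part of any cell type in these values was not tested. In cerebellum, Grin2b was at 2.12, 2.53 and 2.49 FPKM in females and at 1.64, 1.57 and 1.81 FPKM in males (log2 difference -0.49, SE 0.21, adjusted p = 1), and Grin2d was at 1.4, 1.13 and 1.23 FPKM in females and at 0.827, 0.858 and 0.906 FPKM in males (-0.52, SE 0.251, adjusted p = 1). In brain, the smallest SE of the 9 genes was that of Grin2b (0.2), with an interval of 2 SE on either side from -0.14 to 0.65, and that of Gria1 (SE 0.323) ran from -0.55 to 0.75.

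Outside the nervous system most subunits were at traces. Of the summed mean FPKM of the 6 tissues, brain and cerebellum held 99.1% or more for Gria1, Gria2, Grin1 and Grin2a, 97.9% for Gria4, 95.5% for Grin2c, 87% for Gria3, 79.1% for Grin2b and 20.8% for Grin2d. Tau, which is 0 for even and 1 for single-tissue expression over the 6 tissues, ran from 0.847 for Grin2c to 0.963 for Gria4. Of the 45 pairs of tissues that were neighbours in the order of a gene's mean FPKM, 29 differed in that order and 16 were not called, 1 of them (Grin2b in colon and heart) with every library at or under 3 reads. Brain and cerebellum were neighbours for 8 genes and differed for 7, where 26.1% of all genes were called. Calls with a tissue in which the gene did not pass the filter are a description. Of the 37 pairs other than brain and cerebellum, 22 differed. In those pairs of tissues the share of all genes called was 68.3%, 56.8% and 71.5% for brain against colon, ovary and testis, 66.1%, 57.4%, 53.5% and 71% for cerebellum against colon, heart, ovary and testis, 48% and 71.9% for colon against ovary and testis, 53.9%, 44% and 67.5% for heart against colon, ovary and testis, and 64.3% for ovary against testis.

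Grin2d was the gene whose highest level lay outside the nervous system. The 3 testis libraries stood at 9.26, 10.2 and 9.49 FPKM, on 1754 to 2098 reads, and every other library at 2.26 FPKM or below. Testis was 7-fold above brain (log2 difference 2.81, SE 0.202, adjusted p = 3.18e-12) and 11.7-fold above cerebellum (3.55, SE 0.206, adjusted p = 4.63e-14). The summed pan-neuronal markers went the other way, at 37.6 to 38.6 FPKM in testis and at 1610 FPKM or more in brain. The antisense gene Gm45441 shares 643 bases, or 9.66%, of the exons of Grin2d, and it was at 42.1 ± 2.43 FPKM in testis (SD, n = 3), above its levels in brain and cerebellum given earlier. Its reads numbered 1698 to 2025 in the testis libraries, 0.934 to 0.968 of those of Grin2d, and how many of the reads given to Grin2d came from it was not tested. After brain and cerebellum, which differed in that order, came ovary (0.215 ± 0.0395 FPKM), heart (0.135 ± 0.0512) and colon (0.109 ± 0.0536; SD, n = 3, 5 and 6). Cerebellum was above ovary (adjusted p = 4.41e-09), ovary and heart did not differ beyond their spread (adjusted p = 0.84), and heart was above colon in the fit (adjusted p = 0.00696) with overlapping libraries.

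The counted block of Grin2b was also read in testis, at 4.9, 5.19 and 5.82 FPKM on 535 to 687 reads. This lay below brain (3.2-fold, log2 difference -1.68, SE 0.189, adjusted p = 4.1e-08) and above cerebellum (3.36-fold, 1.75, SE 0.171, adjusted p = 4.3e-09), with no overlap on either side. The lncRNA gene Gm14329, which shares 143 bases of the block on the other strand, was at 7.94 ± 0.859 FPKM in testis and 15.7 ± 2.06 FPKM in brain. Since the block is 1 exon, these reads do not show whether the remaining exons of Grin2b were present in testis. In ovary it was at 0.448, 0.388 and 0.381 FPKM, on 31 to 41 reads, below cerebellum (adjusted p = 6.43e-10). In colon, 1 of 6 libraries held 2 reads, and in heart 1 of 5 held 1 read, under the limit of 3 reads that a count of 0 allows, which covers counting error only and comes to at most 0.0666 and 0.0399 FPKM.

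Gria4 was at 1.07, 1.17 and 0.909 FPKM in testis, on 231 to 298 reads, and below every brain library (log2 difference to brain 3.18, adjusted p = 1.53e-09). It was 8.38-fold above ovary (log2 difference 3.07, SE 0.363, adjusted p = 6.21e-08) and higher than colon, where it was at 0.425 ± 0.183 FPKM (adjusted p = 9.06e-06). Colon was in turn above ovary in the fit (adjusted p = 0.00122) with overlapping libraries, and ovary and heart were not told apart (adjusted p = 0.131). The heart mean of 0.0859 FPKM was 0.0444 FPKM without female replicate 3, which held 50 of its 84 heart reads.

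Gria3 had at least 56 reads in each of the 29 libraries, the highest such minimum of the 9 genes. Outside the nervous system it was at 2.06 to 2.46 FPKM in ovary, 1.05 to 2.28 FPKM in colon, 1 to 1.59 FPKM in testis and 0.495 to 1.5 FPKM in heart. Ovary lay below cerebellum (6.22-fold, adjusted p = 7.12e-11), ovary and colon did not differ beyond their spread (adjusted p = 0.135), nor did colon and testis (adjusted p = 0.427). Testis was above heart in the fit (adjusted p = 0.00162) with overlapping libraries. The heart mean of 0.734 FPKM fell to 0.542 FPKM without female replicate 3.

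Gria1, Gria2 and Grin1 stayed at 0.688 FPKM or below in every library outside the nervous system. Gria1 was at 0.486 ± 0.168 FPKM in colon, 0.383 ± 0.026 in testis, 0.343 ± 0.2 in ovary and 0.146 ± 0.0837 in heart, and neighbours among these were not called (adjusted p = 0.97, 0.0938 and 0.177). Gria2 was at 0.283 ± 0.0659 FPKM in testis and 0.259 ± 0.0902 FPKM in colon (adjusted p = 0.254). It was lower in ovary than in colon (adjusted p = 0.000158), with 0 to 15 reads, and in heart 2 of 5 libraries had no read. Grin1 followed the order of Gria1, with 0.333 ± 0.108 FPKM in colon, 0.186 ± 0.0505 in testis, 0.181 ± 0.066 in ovary and 0.0314 ± 0.0405 in heart, of which ovary and heart differed (adjusted p = 0.0042) and the other 2 neighbouring pairs were not called. In colon, the 6 enteric and peripheral neuron markers summed to 6.93 to 11.4 FPKM, against 0.63 to 2.05 FPKM in heart, and the pan-neuronal markers to 19.2 to 27.3 against 2.14 to 5.22 FPKM. The enteric list summed to 1.64 to 2.08 FPKM in ovary and 0.735 to 0.999 FPKM in testis. The pan-neuronal list summed to 8.81 to 13.9 FPKM in ovary and, above colon, to 37.6 to 38.6 FPKM in testis. The part of the cells that carry these markers in the colon levels was not tested.

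Grin2a and Grin2c, by contrast, were near or at 0 in colon. Grin2a had no read in 4 of 6 colon libraries and at most 4, and Grin2c had 1 read in 1 of 6, where 3 reads correspond to at most 0.0142 and 0.0507 FPKM. Grin2a was at 0.0559 ± 0.0287 FPKM in heart, 0.0302 ± 0.00671 in testis and 0.00612 ± 0.00384 in ovary, each step being called (adjusted p = 0.00481 and 3.83e-05). Heart and testis libraries overlapped, and the ovary level rested on 1 to 5 reads per library. Grin2c was at 0.328 ± 0.0695 FPKM in ovary, 0.148 ± 0.0192 in testis and 0.127 ± 0.104 in heart, and these neighbours were not called (adjusted p = 0.218 and 0.577). The heart mean of Grin2c was 0.084 FPKM without female replicate 3, which alone held 36 of the 74 heart reads.

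The genes with the most similar profile were taken from all genes tested, by Pearson's r of the 10 group means of log2 CPM. These 10 points include 4 of nervous tissue, which lie far above the rest for most subunits, so that r is high for many genes. For Grin1 they were Diras2 (0.999), a locus joining 1500009C09Rik, Sept3 and Srebf2 (0.998) and Spock1 (0.998). Gria2 was most like Gm28294 and Pcsk2 (0.995 each) and Slitrk5 (0.994), and Gria3 like Sgtb and Slc25a14 (0.996 each) and Kcnh5 (0.995). The genes nearest to Gria1 were Gm44797, Gm5089 (0.998 each) and 6530403H02Rik (0.997), which are a TEC, an antisense and a lincRNA gene. Gria4 was nearest to Cdh18 (0.992), Elmo1 and the calcium channel gene Cacna1a (0.990 each). Grin2a was nearest to Rapgef4 (0.997), Abhd12 (0.996) and Nova2 (0.991), and Grin2b to Pcdh8 (0.996), Mnt (0.992) and Dpy19l1 (0.990). Grin2c came next to Rmst (0.991), Zfp142 and Npas3 (0.990 each), and Grin2d next to Ddhd1, Gm5093 (0.994 each) and Gm41492 (0.991). None of the 9 subunits was among the 3 nearest genes of another.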

How the data were processed

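RNA-seq libraries (29) of rRNA-depleted RNA from 6 tissues were analysed from the table of raw counts per gene that the authors deposited. Per the submitters' processing notes the tools were FastQC 0.11.8, MultiQC 0.9, HISAT2 2.0.5 and featureCounts 1.6.3 on mm10. Uniquely mapped reads were counted on a PacBio Iso-seq annotation joined with ENSEMBL genes, and the strand setting is not given in the sources used here. A count merges flip and flop forms, and the exchange of reads between overlapping genes was not tested.

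Genes were named through the deposited map of Iso-seq loci, using the locus with the most counts. All 29 libraries in 10 groups were fitted once with edgeR 4.0.16 (R 4.3.3, limma 3.58.1; TMM, filterByExpr, quasi-likelihood test, 29911 genes, adjusted p under 0.05). The SE is the log2 difference over the root of F. The study's methods name DESeq2, which was run as an alternative (1.42.0). FPKM used total counts and the deposited exons, so it is not on the TMM scale. Brain against cerebellum is the mean of both sexes. Total counts ranged from 11742417 to 36194255, and 28 pairs within groups differed beyond sampling noise. On simulated counts of 29911 genes, brain against cerebellum recovered 82% of 2-fold and 98% of 4-fold changes, with 5.76% false calls.

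The subunits, the gene lists and the markers were chosen with earlier results of these data known. Named genes of each list are the called genes with the largest differences whose brain and cerebellum libraries do not overlap, at most 2 in each direction, and similar genes are the 3 with the highest Pearson's r over group means of log2 CPM (prior count 2). Alternatives were other scalings, filters, tools, lengths, sexes, blocks and single libraries left out. Iso-seq reads were not used here beyond the models. Some genes that this rule names are not reported here, although the counts and medians of the lists include them.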

Additional observations from a re-analysis of the deposited data

Results flagged for a closer look

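Each subunit gene was examined in brain, cerebellum, heart and colon, which hold 5 or 6 libraries each, and 6 of these 36 sets held 1 library far from the others. The rule compares the gap to the next library with the whole range, and marks about 1 in 20 sets of normally distributed values. It always marks a set with reads in only 1 library, so 6 of 36 cannot be set against that rate. Gria3 was at 1.5 FPKM (208 reads) in female heart replicate 3 and at 0.495 to 0.595 FPKM in the other 4 heart libraries. Gria3 was at 2.28 FPKM (249 reads) in male colon replicate 1 and at 1.05 to 1.47 FPKM in the other colon libraries. Grin2d was at 0.217 FPKM (17 reads) in female colon replicate 1 and at 0.0799 to 0.0954 FPKM in the others. The remaining 3 rest on 1 or 2 reads beside libraries at 0, namely Grin2b at 0.0107 FPKM in female heart replicate 1, Grin2b at 0.0277 FPKM in male colon replicate 2 and Grin2c at 0.0149 FPKM in male colon replicate 3.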

How the results depend on the processing

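Between brain and cerebellum, 196 of 207 recomputed differences of single genes kept their direction and their side of the threshold. Scaled to pan-neuronal genes, Gria2 was 0.77 (adjusted p = 0.0792), Gria3 0.34 (0.127) and Grin1 0.00 (1), no longer called, Grin2d turned to -0.25 (0.348), Grin2c became called at -1.41 (0.000215), and 2 genes were higher in brain; this scaling moved the median of all genes to -0.89 and gave 18329 calls, 6.68% of them higher in brain, against 7796. In females only, with 1993 calls, Gria2 was 1.47 (0.0726), Grin1 0.94 (0.115) and Grin2d 0.59 (0.382), and 3 genes were higher in brain. Males only gave 8161 calls from 14 libraries, against 15 in females, and the cause of the difference was not tested. Grin2c was called in only the 12 libraries of both regions (-0.47, 0.0199), with the replicate block (-0.45, 0.0292) and with the block on the leading digit of the code in the labels (-0.45, 0.0224).

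Same-numbered brain and cerebellum libraries did not deviate together (r from -0.0298 to 0.0847, and by library code -0.0363 to 0.0408). With so few libraries per group, this cannot tell whether libraries came from the same animal. The replicate block gave 9966 calls and the code block 8883, against 9810 without a block in the same libraries, and no other subunit changed its call under either.

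Leaving out 1 library at a time kept each call, with ranges of -1.75 to -1.53 for Gria1, 1.68 to 1.95 for Gria2, 1.28 to 1.48 for Gria3, -2.60 to -2.47 for Gria4, 0.97 to 1.10 for Grin1, 1.73 to 1.81 for Grin2a, 3.36 to 3.47 for Grin2b, -0.51 to -0.27 for Grin2c and 0.65 to 0.82 for Grin2d. The sex comparisons were recomputed under 16 alternatives in each region and 18 for the interaction, without upper quartile or pan-neuronal scaling, and gave 0 called subunits in each, with a lowest adjusted p of 0.632 in brain, 0.911 in cerebellum and 0.272 for the interaction.

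Of 48 shares recomputed with another length, 34 moved by more than the spread between libraries, and of 96 with 1 library left out, 0 did. Gria1 in brain took 53.9% with the GENCODE exon union and 45.7% with the longest transcript, Grin2b in brain 13.5% and 12.1%, where reads of a block with 15.4% of its exon bases are divided by the whole length, and 22.3% with undivided counts, and Grin2c in cerebellum 30.5% with undivided counts. Gria1 in testis and ovary became called with RLE size factors (0.92, 0.0344) and DESeq2 (0.94, 0.0259), and Grin1 with DESeq2 (0.82, 0.0286).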
